A study of Mus musculus with 9 samples.

Results

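The mitochondrial ribosomal protein genes of mouse adult fibroblasts are described here across 3 groups of libraries. They are the protein-coding genes whose symbol is Mrpl or Mrps followed by a number and at most 1 letter, taken by that name alone. The rule gave 78 of the 53465 genes in the count table, 49 named for the large subunit and 29 named for the small subunit. All 78 were expressed highly enough to be tested, among 14088 genes tested in all. The groups were 3 control libraries, 3 libraries after DPI for 24 h and 3 after DPI for 72 h, all from cultured fibroblasts labelled as MAFs with no strain, age or other genotype given. DPI is not spelled out in the labels. The text reads it as diphenyleneiodonium, which blocks flavoenzymes, because the series concerns the flavin cofactor of respiratory complex I. The labels give no dose, no vehicle for the controls and no collection time for them, so time in culture cannot be told apart from DPI in any comparison. Whether replicate libraries stem from separate cultures is not stated, and p-values therefore reflect only the spread among the 9 libraries, possibly a technical one.

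Mitochondria carry their own ribosome, which makes the few proteins encoded in mitochondrial DNA, among them core membrane subunits of complex I. Its RNA comes from mitochondrial DNA, but its proteins are encoded in the nucleus, made in the cytosol and imported. Some of these proteins have bacterial counterparts, and others were gained in the mitochondrial lineage. Loss of single proteins of either subunit is known to impair assembly of the ribosome and of respiratory complexes.

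Counts per library ranged from 15292736 in control 3 to 17923656 in control 2. Fibroblast markers summed to 7145 to 8630 CPM (counts relative to library size, scaled by the trimmed mean of M values) in the controls, 13478 to 14140 at 24 h and 11624 to 13074 at 72 h, and 7 of 10 were above 1 CPM in every library. Keratinocyte markers summed to at most 10.1 CPM, with Krt5 and Krt1 at 0 throughout, and macrophage markers to at most 9.65 CPM, with Adgre1 at 0 throughout. In bulk RNA, fewer cells of a type and less RNA per cell cannot be told apart. Control 2 stood apart from controls 1 and 3, also for the mitochondrial ribosomal protein genes, and the counts, medians and calls of these genes against control are given with and without it. The levels per length and the per-library values include it. Groups of 3 that do not overlap were common: over all genes tested, 20.4% were higher and 20.1% lower in every 24 h library than in any control, 13.9% and 13.2% at 72 h, and 22.5% and 23.7% at 72 h against 24 h.

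The start regions of the genes that carry the results are shown first. RefSeq promoter windows (GRCm38.p6, 250 bases before the start and 50 after it) matched 69 of the 78 genes, in 75 windows, and 9 genes had no window. Each window was searched on both strands for CCGGAAG, a site of ETS factors such as the GABP complex, for GCGCANGC, a core of the NRF1 site, for AAGATGGC, a core of the YY1 site, and for TGATGNAA, a core of composite sites for ATF4 and C/EBP. These factors are known regulators of nuclear genes for mitochondrial proteins or, for ATF4, of the stress response. CCGGAAG was in 34.7% of the windows of mitochondrial ribosomal protein genes, against 17.8% of the 12025 windows of protein-coding genes tested. GCGCANGC was in 29.3%, against 19.9%, and AAGATGGC in 16%, against 4.47%. TGATGNAA was in 0 of the 75 windows, against 2.15%. The median GC content was 58.7% in the windows of the mitochondrial ribosomal protein genes and 61% in those of all protein-coding genes tested.

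The 3 windows that follow belong to the genes whose 24 h difference passed the test with any single library left out. They hold none of the 4 motifs and are therefore all in lower case, 5′ to 3′ on the gene's strand. Mrpl24 and Mrps10 fell at 24 h and Mrps6 rose. The windows are chr3:87919294-87919593 (plus strand), chr17:47368947-47369246 (plus strand) and chr16:92058086-92058385 (plus strand) in the same order. The Mrps10 window lies wholly inside the annotated span of that gene given below, so it holds no base before the start of that span.
Mrpl24: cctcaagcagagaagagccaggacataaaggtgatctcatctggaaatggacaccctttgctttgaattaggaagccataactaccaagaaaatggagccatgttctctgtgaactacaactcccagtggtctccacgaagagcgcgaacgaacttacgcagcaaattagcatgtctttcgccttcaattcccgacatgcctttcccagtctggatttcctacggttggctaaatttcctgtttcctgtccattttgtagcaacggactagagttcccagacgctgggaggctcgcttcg
Mrps10: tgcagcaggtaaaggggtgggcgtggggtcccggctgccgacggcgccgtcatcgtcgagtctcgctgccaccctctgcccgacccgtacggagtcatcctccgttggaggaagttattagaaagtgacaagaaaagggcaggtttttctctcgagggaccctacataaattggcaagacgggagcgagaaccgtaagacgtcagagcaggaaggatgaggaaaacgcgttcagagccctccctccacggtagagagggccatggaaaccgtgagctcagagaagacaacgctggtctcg
Mrps6: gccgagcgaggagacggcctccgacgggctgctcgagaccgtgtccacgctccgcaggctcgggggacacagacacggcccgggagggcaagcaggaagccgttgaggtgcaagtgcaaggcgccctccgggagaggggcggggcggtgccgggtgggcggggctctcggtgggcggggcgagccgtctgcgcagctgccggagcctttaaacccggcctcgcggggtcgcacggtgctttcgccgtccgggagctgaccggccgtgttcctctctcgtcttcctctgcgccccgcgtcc

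The next 3 windows belong to genes that passed the test in at least 1 comparison and hold a motif, in capitals. The Mrpl30 window (chr1:37890227-37890526, plus strand) holds 2 matches to the NRF1 core. The Mrpl33 window (chr5:31613701-31614000, plus strand) holds an NRF1 core at base 239 and an ETS site at base 248, counted from the window's first base. The Mrpl18 window (chr17:12916042-12916341, minus strand) holds an ETS site at base 11. Mrpl30 fell at 24 h, whereas Mrpl33 and Mrpl18 fell from 24 to 72 h. Neither of these 2 passed against control at 24 h with all libraries, and both were higher there without control 2. A match to these letters is a description of the window and not evidence of binding.
Mrpl30: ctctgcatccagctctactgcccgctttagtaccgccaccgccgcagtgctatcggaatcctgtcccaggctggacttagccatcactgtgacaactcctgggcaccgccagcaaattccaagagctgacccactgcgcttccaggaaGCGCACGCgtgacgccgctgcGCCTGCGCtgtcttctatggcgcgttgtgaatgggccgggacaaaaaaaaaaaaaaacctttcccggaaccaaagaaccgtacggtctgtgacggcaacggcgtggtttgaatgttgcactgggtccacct
Mrpl33: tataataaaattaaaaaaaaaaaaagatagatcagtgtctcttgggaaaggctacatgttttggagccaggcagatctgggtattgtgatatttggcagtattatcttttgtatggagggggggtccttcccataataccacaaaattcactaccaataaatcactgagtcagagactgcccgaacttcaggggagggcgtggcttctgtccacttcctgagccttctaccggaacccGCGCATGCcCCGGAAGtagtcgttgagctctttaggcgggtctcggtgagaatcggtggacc
Mrpl18: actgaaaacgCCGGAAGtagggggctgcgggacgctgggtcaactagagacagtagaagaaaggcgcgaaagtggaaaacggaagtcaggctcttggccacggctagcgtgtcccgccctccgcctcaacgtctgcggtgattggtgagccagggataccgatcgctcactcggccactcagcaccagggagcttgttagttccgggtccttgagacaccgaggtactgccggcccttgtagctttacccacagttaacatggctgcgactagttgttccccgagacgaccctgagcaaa

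Levels are compared between genes only per length, as CPM per kilobase of merged exons (RPKM). In the controls the highest large subunit genes were Mrpl28 at 45.5 ± 9.96 RPKM (SD, n = 3), Mrpl12 at 45.3 ± 6.94 and Mrpl54 at 44.2 ± 8.20. These 3 did not differ beyond their spread. Mrpl12 also binds the mitochondrial RNA polymerase. The highest small subunit genes were Mrps21 at 47.4 ± 8.97 RPKM, Mrps7 at 31.7 ± 4.70 and Mrps6 at 30.9 ± 3.24, and Mrps7 and Mrps6 did not differ beyond their spread. At the other end stood Mrps10 at 6.82 ± 0.0707 RPKM, Mrps30 at 5.87 ± 1.34 and Mrps35 at 3.99 ± 0.559. The lowest large subunit genes were Mrpl32 at 4.73 ± 0.713 RPKM, Mrpl48 at 4.18 ± 0.711 and Mrpl23 at 0.596 ± 0.142. Merged exons include rarely used ones, so genes with many annotated isoforms have low values on this scale.

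**Figure D1:**
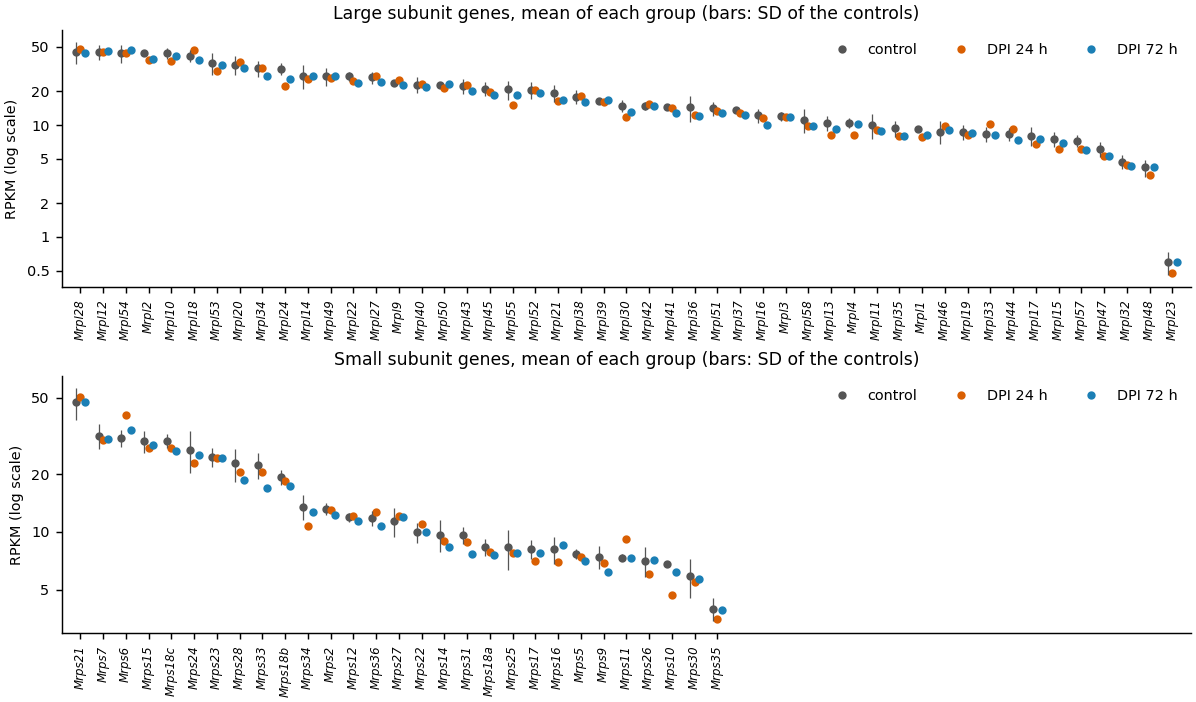
Mean RPKM of each gene in each group on a log axis, large subunit genes above and small subunit genes below, in order of the control mean, with the SD of the 3 controls as bars. Most genes lie between 5 and 50 RPKM with the 3 groups close together, and Mrpl23 lies apart at 0.596 RPKM in the controls.

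Mrpl23 is a special case, because a processed pseudogene, Mrpl23-ps1, received more reads than the gene. Mrpl23, the counterpart of bacterial L23 at the exit of the peptide tunnel, had 28 to 67 counts per library and Mrpl23-ps1 had 213 to 593. Reads of so similar a pair may be split by the counting, so the level of Mrpl23 is uncertain. The gene was at 2.53, 2.48 and 3.71 CPM in the controls, 1.77, 3.29 and 1.86 at 24 h and 2.73, 4.14 and 1.81 at 72 h, with groups that overlap. The pseudogene was at 23.7, 32.7 and 20 CPM in the controls, 16.1, 13 and 17 at 24 h and 21, 19 and 23.2 at 72 h. All 3 libraries at 24 h were below all others for the pseudogene, which fell by 0.73 ± 0.17 (log2, SE) against control in edgeR's quasi-likelihood test (adjusted p = 0.0105, and 0.0110 without control 2). The fold change of Mrpl23 itself had a 95% interval from −1.13 to 0.46 at 24 h, the widest of the 78 genes in that comparison.

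Control 2 was the highest library for most of these genes. Summed over the large subunit, the level was 1903, 2392 and 1921 CPM in controls 1, 2 and 3, between 1923 and 1951 CPM at 24 h and between 1906 and 1955 CPM at 72 h. The small subunit summed to 979, 1203 and 982 CPM in the controls, to 997 to 1004 CPM at 24 h and to 971 to 1021 CPM at 72 h. Controls 1 and 3 were thus within or just below the range of the treated libraries, and control 2 was above all of them. Control 2 exceeded the mean of controls 1 and 3 for 75 of the 78 genes, with a median log2 ratio of 0.33, and it was the highest of the 9 libraries for 64 of them. Over the 13978 tested genes with a defined ratio, these shares were 49.6% and 22.4%. For tested genes with 2000 to 4000 bases of exons they were 66.7% and 31.1%. Among the 78 genes, the largest ratios were 0.60 for Mrpl36 and 0.58 for Mrpl58 (log2), while Mrps10 differed by 0.02 and Mrps5, the counterpart of bacterial S5, by 0.05.

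**Figure D2:**
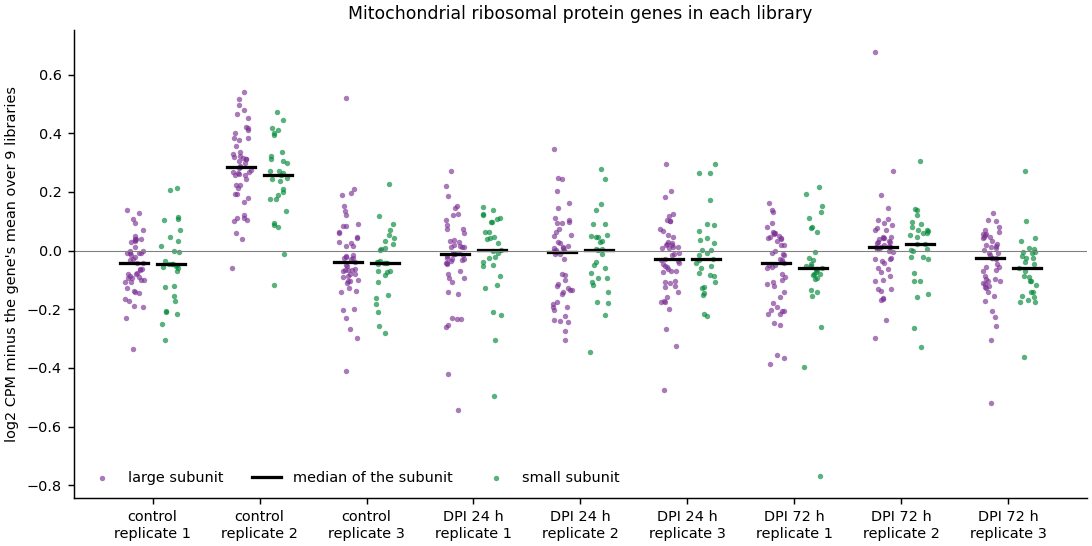
Each point is 1 gene in 1 library, as its log2 CPM minus its own mean over the 9 libraries, with large and small subunit genes apart and black bars at their medians. The medians of control 2 are 0.28 and 0.26 above 0, and those of the other 8 libraries lie between −0.06 and 0.02.

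The excess in control 2 was shared by other short transcripts. Over all genes, the median log2 ratio of control 2 to the other controls was 0.26 for genes with at most 1000 bases of exons, 0.27 for 1000 to 2000 bases, 0.12 for 2000 to 4000 bases, −0.06 for 4000 to 8000 bases and −0.31 above that. The mitochondrial ribosomal protein genes had a median exonic length of 2394 bases, against 4108 for all genes tested. Long members such as Mrps25 (ratio 0.55) and Mrps30 (0.53) were raised in control 2 as well, so these genes lay above the median of their length class. Cytosolic ribosomal protein genes had a median ratio of 0.44, and they took 5.60% of the counts in control 2, against 4.15% and 4.21% in controls 1 and 3. How far RNA quality or library preparation had a part in this was not tested.

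**Figure D3:**
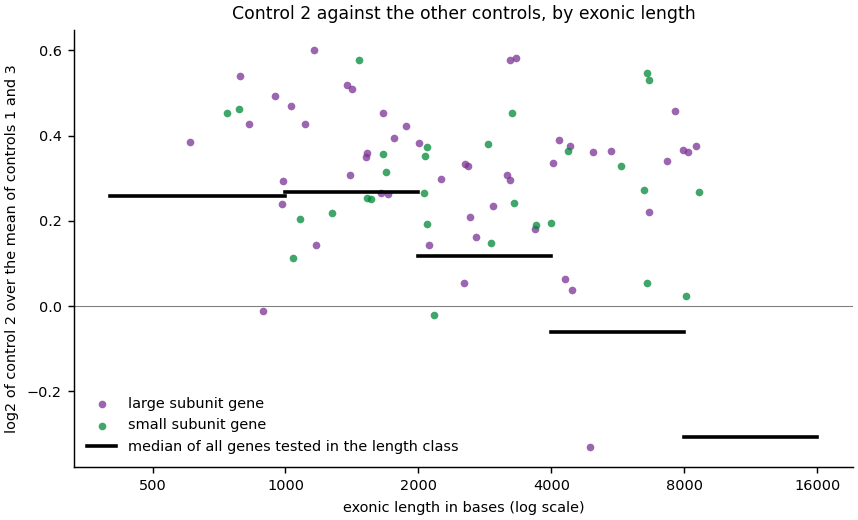
Log2 ratio of control 2 to the mean of controls 1 and 3 for each mitochondrial ribosomal protein gene against its exonic length (log axis), with horizontal bars at the median of all genes tested in 5 length classes. Most points lie above the bar of their class, and the bars go from 0.26 down to −0.31.

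At 24 h of DPI the mitochondrial ribosomal protein genes moved little, and those that passed the test went mostly down. In edgeR's quasi-likelihood test, with p-values adjusted over all genes tested, 8 of 78 fell and 1 rose. Over all genes, 12.3% fell and 12.4% rose, so the share that fell was near the background. The 8 were Mrpl24, Mrpl4, Mrpl30, Mrpl13, Mrpl55 and Mrpl15 of the large subunit and Mrps10 and Mrps34 of the small subunit, and the 1 was Mrps6. Median log2 fold changes were −0.10 for the large subunit and −0.11 for the small subunit, beside −0.01 for all genes. Without control 2 they were 0.02 and 0.01, with 5 genes higher and 5 lower, where 15.9% of all genes rose and 14.7% fell. The number lower among these genes and the direction of both medians thus depended on control 2. With library-wise correction for exonic length and GC content, 4 rose and 7 fell, and with relative log expression scaling 2 rose and 7 fell. The shares of all genes in these fits are not given here.

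Mrpl24, the counterpart of bacterial L24, had one of the clearest differences (chromosome 3, 87919506 to 87923672, GRCm38, plus strand). It was at 65.6, 82.2 and 68.2 CPM in the controls, 50.6, 51.7 and 49.4 CPM at 24 h and 59.2, 58.4 and 56.8 CPM at 72 h. The 3 groups did not overlap, and the treated libraries at 72 h lay between the other groups. It fell by 0.51 ± 0.08 (log2, SE) at 24 h (edgeR quasi-likelihood, adjusted p = 0.00132), and by 0.40 ± 0.05 without control 2 (adjusted p = 0.000111). With any single library left out its adjusted p stayed between 0.000111 and 0.00976. Its annotated span overlaps Rrnad1 on the opposite strand by 1072 bases, and Rrnad1 also fell at 24 h, by 0.33 ± 0.10 (edgeR quasi-likelihood, adjusted p = 0.0354, and 0.0376 without control 2). The strand setting of the counting is not given in the sources used here, so reads in an overlap on opposite strands cannot be told apart.

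Mrps10, the counterpart of bacterial S10 in the head of the small subunit, had the largest fall among the 78 genes (chromosome 17, 47368887 to 47381417, plus strand). It was at 54.6, 55.7 and 55.1 CPM in the controls, 33.4, 37.0 and 43.2 CPM at 24 h and 49.1, 51.2 and 50.4 CPM at 72 h. The libraries at 24 h were the lowest, and those at 72 h lay between them and the controls, without overlap. Control 2 was level with the other controls for this gene. The fall at 24 h was by 0.54 ± 0.09 (log2, SE; edgeR quasi-likelihood, adjusted p = 0.0011), and by 0.53 ± 0.09 without control 2 (adjusted p = 0.00058). No protein-coding gene overlaps it in the annotation.

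Mrps6, the counterpart of bacterial S6, was the gene that rose (chromosome 16, 92058270 to 92112227, plus strand). It was at 44.9, 53.1 and 44.1 CPM in the controls, 58.2, 64.9 and 64.3 CPM at 24 h and 50.8, 56.1 and 49.3 CPM at 72 h. The libraries at 24 h were above all others, and the 72 h libraries overlapped the controls. The rise was 0.40 ± 0.09 (log2, SE; edgeR quasi-likelihood, adjusted p = 0.00716) and 0.49 ± 0.07 without control 2 (adjusted p = 0.000253). Its span overlaps Slc5a3, the gene of a myo-inositol transporter, over 29152 bases on the same strand. Slc5a3 was at 96.2, 69.2 and 88.5 CPM in the controls, 111, 111 and 128 CPM at 24 h and 109, 121 and 111 CPM at 72 h, so the treated libraries of both times were above all controls. Slc5a3 rose by 0.46 ± 0.11 at 24 h and by 0.42 ± 0.11 at 72 h (edgeR quasi-likelihood, adjusted p = 0.0119 and 0.0399), and without control 2 by 0.33 and 0.30 (adjusted p = 0.00385 and 0.0171). Reads in exons that the annotation gives to both genes can be counted to either, and its part in the values of Mrps6 was not tested.

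**Figure D4:**
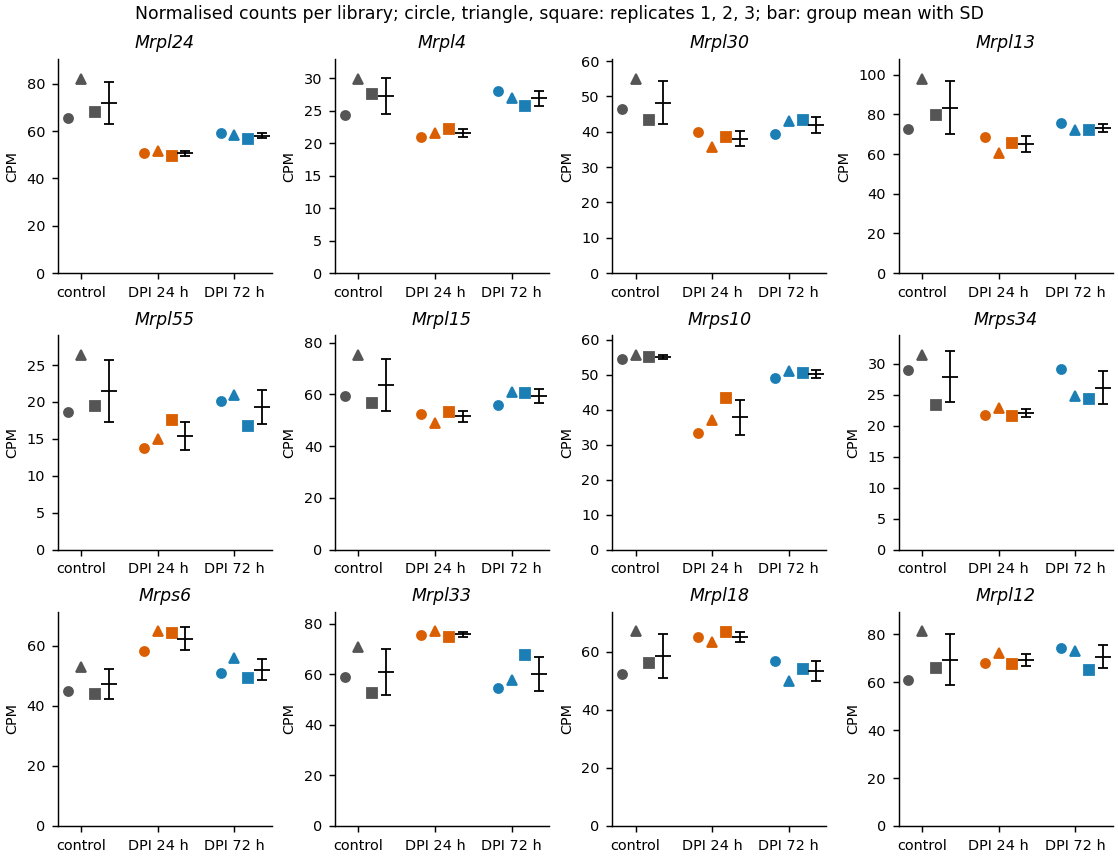
CPM in each library for the 11 genes that passed the test in at least 1 comparison and for Mrpl12, with circles, triangles and squares for replicates 1, 2 and 3 and black bars for group means with SD (all axes start at 0). Control 2, the triangle among the controls, is the highest control for every panel shown, by the least in Mrps10.

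Mrpl4, Mrpl30 and Mrpl13 formed a second tier that passed with and without control 2 but not without some of the 24 h libraries. Mrpl4, whose bacterial counterpart lines the peptide exit tunnel, was at 24.4, 30.0 and 27.5 CPM in the controls, 20.9, 21.5 and 22.2 at 24 h and 28.1, 26.9 and 25.8 at 72 h. The 24 h libraries were the lowest and the 72 h libraries overlapped the controls. It fell by 0.34 ± 0.09 at 24 h (edgeR quasi-likelihood, adjusted p = 0.0151), and the adjusted p was 0.0609 without DPI 24 h replicate 1 and 0.0524 without replicate 2. Mrpl30, the counterpart of L30, was at 46.4, 55.1 and 43.3 CPM in the controls, 39.8, 35.8 and 38.5 at 24 h and 39.4, 43.0 and 43.4 at 72 h. It was lower in every 24 h library than in any control, by 0.34 ± 0.09 (adjusted p = 0.0202 in the same test). Without DPI 24 h replicate 2 or 3 the adjusted p was 0.0858 or 0.0595. Mrpl13, the counterpart of L13, was at 72.4, 98.0 and 79.6 CPM in the controls, 68.6, 60.5 and 65.5 at 24 h and 75.7, 72.0 and 71.9 at 72 h. Without control 2 the values of Mrpl4 and Mrpl30 were −0.27 and −0.24 (adjusted p = 0.0283 and 0.023 in edgeR's test) and that of Mrpl13 was −0.23 (0.0178). Its fall of 0.36 ± 0.10 at 24 h, with all libraries, had an adjusted p of 0.024 in edgeR's test, and 0.0969 or 0.0679 without DPI 24 h replicate 2 or 3. Mrpl13 overlaps the start of Mtbp on the opposite strand by 341 bases, and Mtbp fell at 24 h by 0.42 ± 0.07 (edgeR quasi-likelihood, adjusted p = 0.0015, and 0.000105 without control 2).

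Mrpl55, Mrpl15 and Mrps34 passed only narrowly, and each of the 3 missed the threshold without control 2. Mrpl55, the counterpart of bacterial L31, was at 18.6, 26.4 and 19.5 CPM in the controls, 13.8, 14.9 and 17.5 at 24 h and 20.2, 21 and 16.7 at 72 h. Its value at 24 h was −0.48 ± 0.15 (log2, SE; edgeR quasi-likelihood, adjusted p = 0.040), and −0.30 ± 0.13 without control 2 (adjusted p = 0.0938). It also missed the threshold without DPI 24 h replicate 1 or 2 or DPI 72 h replicate 1 or 2, with an adjusted p of 0.0517 to 0.139. Mrpl15, a counterpart of L15, was at 59.3, 75.2 and 56.6 CPM in the controls, 52.4, 49.0 and 53.1 at 24 h and 56.1, 60.9 and 60.6 at 72 h. Its 24 h value was −0.31 ± 0.10 (adjusted p = 0.0448 in edgeR's test) and −0.17 ± 0.06 without control 2 (adjusted p = 0.0525). Leaving out any treated library gave it an adjusted p of 0.0604 to 0.146. Mrps34, a protein particular to mitochondria that stabilises the small subunit, was at 29.0, 31.4 and 23.3 CPM in the controls, 21.8, 22.8 and 21.7 at 24 h and 29.2, 24.8 and 24.4 at 72 h. Its 24 h value was −0.34 ± 0.11 (adjusted p = 0.0496 in edgeR's test) and −0.25 ± 0.11 without control 2 (adjusted p = 0.107). Its adjusted p was also 0.0668 to 0.132 without control 1, any DPI 24 h library, or DPI 72 h replicate 2 or 3. Mrps34 lies within the span of Mapk8ip3 on the opposite strand, and it overlaps Nme3 on the same strand by 1003 bases. Mapk8ip3 had a 24 h value of −0.22 ± 0.11 (edgeR quasi-likelihood, adjusted p = 0.173). Without control 2 its value was −0.35 ± 0.06 (adjusted p = 0.000707 in edgeR's test).

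Other genes passed at 24 h only once control 2 was left out, and these were higher. Mrpl33, the counterpart of bacterial L33, was at 58.9, 70.6 and 52.7 CPM in the controls, 75.5, 76.9 and 74.6 at 24 h and 54.7, 57.9 and 67.4 at 72 h. All 24 h libraries were above all others. Its value against control was 0.32 ± 0.11 (edgeR quasi-likelihood, adjusted p = 0.0519), and 0.44 ± 0.08 without control 2 (adjusted p = 0.00137). Mrpl18, the counterpart of the 5S RNA-binding protein L18, was at 52.3, 67.0 and 56.0 CPM in the controls, 65.1, 63.3 and 66.6 at 24 h and 56.7, 49.8 and 54.0 at 72 h. The 24 h libraries overlapped the controls only through control 2, and without it the value was 0.26 ± 0.06 (adjusted p = 0.00815 in edgeR's test), against 0.15 ± 0.09 with it (adjusted p = 0.257). Mrpl28, the counterpart of L28, and Mrps21, the counterpart of S21, had values of 0.07 ± 0.12 and 0.09 ± 0.11 with all libraries. Without control 2 both rose, by 0.27 ± 0.06 and 0.26 ± 0.06 (edgeR quasi-likelihood, adjusted p = 0.00337 and 0.007). Mrps11, the counterpart of S11, did not hinge on control 2. It was at 15.4, 15.8 and 16.7 CPM in the controls, 19.0, 20.3 and 20.6 at 24 h and 16.6, 17.9 and 13.4 at 72 h, without overlap between control and 24 h, and its value of 0.32 ± 0.11 missed the threshold with all libraries and without control 2 (edgeR quasi-likelihood, adjusted p = 0.0543 and 0.0711). Mrps17 and Mrps26 came next in the small subunit, with −0.20 ± 0.09 and −0.23 ± 0.12 (adjusted p = 0.124 and 0.17 in edgeR's test).

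**Figure D5:**
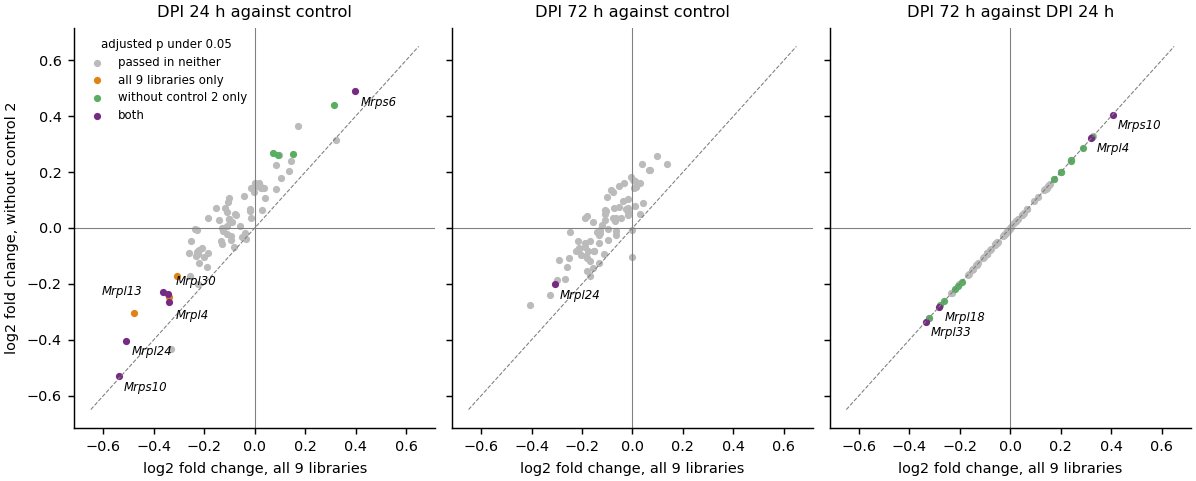
Log2 fold change of each gene with all 9 libraries (x axis) against the same without control 2 (y axis) in the 3 comparisons, coloured by whether it passed an adjusted p of 0.05 and with a dashed line of equality. In both comparisons with control most points lie above the line, and at 72 h against 24 h they lie on it.

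The 24 h calls are given next by evolutionary origin, beside the 12.4% of all genes that rose and the 12.3% that fell. Of 30 large subunit genes with a bacterial counterpart, 6 fell and 0 rose, whereas of 19 large subunit genes particular to mitochondria 0 passed, also at an unadjusted p under 0.05 in edgeR's test. Of 16 small subunit genes with a counterpart, 1 fell (Mrps10) and 1 rose (Mrps6), and of 10 particular to mitochondria 1 fell (Mrps34). Medians were −0.17 and −0.04 for the 2 classes of the large subunit and −0.11 and −0.10 for those of the small subunit, each with a bacterial counterpart first. Without control 2 these medians were −0.03 and 0.05 for the large and 0.02 and 0.00 for the small subunit, so they were smaller or changed sign without that library. Without control 2, where 15.9% of all genes rose and 14.7% fell, 4 of the 30 fell and 3 rose. Of the 19, 0 then passed, with 3 of them at an unadjusted p under 0.05 in edgeR's test. The classes were not tested against each other.

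Another 6 genes, named for a second role, a name at odds with their place, or as a reference, did not pass. Mrpl12 was at 60.9, 81.3 and 65.9 CPM in the controls, 68.0, 72.1 and 67.6 at 24 h and 74.3, 73.0 and 65.1 at 72 h. With all libraries the 95% intervals of its log2 fold change went from −0.23 to 0.22 at 24 h and from −0.19 to 0.25 at 72 h. Without control 2 they went from −0.02 to 0.27 and from 0.01 to 0.31 (edgeR quasi-likelihood, adjusted p = 0.182 and 0.150). Mrpl58, a peptidyl-tRNA hydrolase that rescues stalled ribosomes, was at 31.8, 47.8 and 32.1 CPM in the controls, with 29.9 to 35.7 CPM at 24 h and 29.0 to 34.7 at 72 h. Its control 2 value stood above all others, and its 24 h value went from −0.19 ± 0.15 to 0.04 ± 0.09 without it. Mrps30 and Mrps18a, named for the small subunit but placed in the large one, had 24 h values of −0.11 ± 0.13 and −0.10 ± 0.09 and 72 h values of −0.05 ± 0.13 and −0.15 ± 0.09. Mrps36, now known as a subunit of the alpha-ketoglutarate dehydrogenase complex, was at 14.2, 16.6 and 14.3 CPM in the controls, 15.7, 14.7 and 18 at 24 h and 8.62, 18.2 and 14.5 at 72 h. DPI 72 h replicate 1 was the lowest library for that gene, and its fold changes had an SE of 0.21. Mrps5 had log2 values of −0.05 ± 0.07 at 24 h and −0.11 ± 0.07 at 72 h. None of these 6 passed edgeR's test in any comparison, with or without control 2.

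At 72 h of DPI 1 of these genes passed the test. Against control 0 of 78 genes rose and 1 fell, where 4.73% of all genes rose and 3.83% fell. At an unadjusted p under 0.05 edgeR had 0 higher and 11 lower with all libraries, but 7 higher and 5 lower without control 2. After adjustment, DESeq2 and limma voom also called 0 higher. The 1 gene was Mrpl24, with a fall of 0.31 ± 0.08 (log2, SE; edgeR quasi-likelihood, adjusted p = 0.0432), and of 0.20 without control 2 (adjusted p = 0.0239). Its adjusted p was 0.0552 to 0.146 without control 3 or without any 1 of the 6 treated libraries. Next came Mrps33, at 35.3, 43.6 and 32.9 CPM in the controls, 33.8, 31.5 and 37.0 at 24 h and 24.9, 30.5 and 29.0 at 72 h. All 72 h libraries were below all others for that gene, with a value of −0.41 ± 0.12 (adjusted p = 0.0588 in edgeR's test), and −0.28 without control 2 (0.0821). Mrps31 was at 30.0, 35.2 and 29.6 CPM in the controls, 30.5, 29.6 and 27.9 at 24 h and 27.4, 22.7 and 25.5 at 72 h, also without overlap, with −0.33 ± 0.09 (adjusted p = 0.0595), and −0.24 without control 2 (0.0924). Mrpl16 had −0.30 ± 0.10 (adjusted p = 0.0924) and Mrpl37 −0.16 ± 0.05 (adjusted p = 0.113). Of the others with the smallest p, Mrpl1, Mrpl2 and Mrpl35 had values of −0.18, −0.17 and −0.25, and Mrps9, Mrps18c, Mrps28 and Mrps14 had −0.26, −0.18, −0.29 and −0.22. These 7 did not pass edgeR's test with all libraries (adjusted p = 0.14 to 0.338). Their values, and those of Mrpl16 and Mrpl37, are from the fit that includes control 2, and none of them passed without it. Median log2 fold changes were −0.13 for the large and −0.09 for the small subunit, beside −0.01 for all genes, and 0.01 and −0.00 without control 2. Without it 0 rose and 1 fell, against 7.63% and 6% of all genes.

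From 24 to 72 h, a comparison that does not use the controls' values, 2 genes rose and 2 fell, where 10.1% of all genes rose and 11.2% fell. Mrps10 rose by 0.41 ± 0.09 (log2, SE; edgeR quasi-likelihood, adjusted p = 0.00678), and it passed with any single library left out. Mrpl4 rose by 0.32 ± 0.09 (adjusted p = 0.0225), and it missed the threshold without any of the DPI 24 h libraries or DPI 72 h replicate 1 or 2 (0.0525 to 0.0855). Mrpl33 fell by 0.34 ± 0.11 (adjusted p = 0.0461) and Mrpl18 by 0.28 ± 0.09 (adjusted p = 0.0496). Mrpl33 missed the threshold without control 1, any DPI 24 h library or DPI 72 h replicate 1 or 2 (0.0611 to 0.165), and Mrpl18 without control 3 or any treated library (0.0656 to 0.176). The call of a gene here depends on the controls through the shared estimate of the spread, and the median SE was 0.10 with control 2 and 0.07 without it. Without control 2, 9 genes rose and 8 fell, where 15.7% and 17.1% of all genes did, at fold changes that were nearly the same. Those that then rose included Mrpl24 by 0.20 ± 0.05 and Mrpl48 by 0.24 ± 0.07, and those that fell included Mrps6 by 0.26 ± 0.06, Mrps33 by 0.28 ± 0.09 and Mrps11 by 0.32 ± 0.11 (edgeR quasi-likelihood, adjusted p = 0.00641, 0.0257, 0.00642, 0.0267 and 0.039). Mrps16, the counterpart of S16, rose by 0.29 and Mrpl38 fell by 0.19 (adjusted p = 0.0375 and 0.0324 in that fit), and Mrpl44, at −0.32 ± 0.15, did not pass with or without control 2. The split of calls was 2 higher and 0 lower with upper quartile scaling, 2 and 1 with scaling that left out ribosomal protein genes, and 2 and 3 with total counts. The shares of all genes under these scalings are not given here. Each 24 h comparison and this one share the 24 h libraries, so a gene that is low at 24 h is placed on opposite sides in both.

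The summed levels of the 2 subunits, taken by symbol, had similar ratios in the 3 groups, and a difference in ratio was not tested. The log2 ratio of summed large to summed small subunit CPM was 0.97 ± 0.02 in the controls, 0.95 ± 0.01 at 24 h and 0.96 ± 0.02 at 72 h (SD, n = 3 each), with ranges that overlap. Without control 2 the mean of the controls was 0.963. Together the 78 genes took 0.291%, 0.364% and 0.297% of all counts in controls 1, 2 and 3, between 0.291% and 0.293% at 24 h and between 0.285% and 0.292% at 72 h.

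The size of the changes is given next by 95% intervals, each for a single gene. They rest on the spread among the 9 libraries, possibly a technical one, and may be too narrow for separate cultures. No gene of the 78 had an estimated change of 1.5-fold or more in any comparison. The 95% interval lay within 1.5-fold in both directions for 71 genes at 24 h, 73 at 72 h and 73 between the times, and for 72, 77 and 75 without control 2. The median SE of a log2 fold change was 0.10 with all libraries and 0.07 to 0.08 without control 2.

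Many mitochondrial ribosomal protein genes share their start region with a neighbour. A protein-coding gene on the opposite strand started within 1000 bases of 33 of the 78, which is 42.3%, against 17.0% of protein-coding genes tested. Among the genes that fell at 24 h, Mrpl30 starts 66 bases from Mitd1, a gene of cell division. Mitd1 was at 19.7, 21.4 and 19.4 CPM in the controls, 13.5, 14.7 and 16.8 at 24 h and 13.1, 14.3 and 13.8 at 72 h, lower in all 6 treated libraries. It fell by 0.43 ± 0.10 at 24 h and by 0.56 ± 0.10 at 72 h (edgeR quasi-likelihood, adjusted p = 0.0112 and 0.00609, and 0.0212 and 0.00958 without control 2), while Mrpl30 at 72 h was at −0.20 ± 0.09 (adjusted p = 0.224). Mrpl18 overlaps the start of Tcp1, a chaperonin gene, by 645 bases, and Tcp1 did not pass in any comparison with all libraries, with −0.16 ± 0.07 at 24 h. Mrps34 starts 29 bases from Eme2, which did not pass either. Mrpl46 and Mrps11, 1 gene of each subunit, overlap each other on opposite strands by 413 bases, and their 24 h values were 0.17 (adjusted p = 0.494 in edgeR's test) and 0.32 (0.0543).

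Other genes of mitochondrial protein synthesis were measured from lists of translation factors, assembly factors and the like. Their counts stand beside the 12.3% of all genes that fell and the 12.4% that rose at 24 h. At 72 h 3.83% of all genes fell and 4.73% rose, and from 24 to 72 h 11.2% fell and 10.1% rose. Without control 2, 14.7% fell and 15.9% rose at 24 h, and 6% fell and 7.63% rose at 72 h. From 24 to 72 h, 17.1% then fell and 15.7% rose. The genes of these lists named here as changed also passed without control 2, except Ppargc1a, Oxa1l and mt-Nd2 at 24 h. Of 5 further ribosome proteins that carry other symbols, such as Dap3 and Ptcd3, 0 passed in any comparison with all libraries in edgeR's test, with 1, 2 and 0 at an unadjusted p under 0.05. Of 12 translation factors, 2 fell at 24 h and 2 rose from 24 to 72 h. Without control 2, 2 of the 12 rose and 2 fell at 24 h. With all libraries the 2 were both times Guf1, a back-translocating elongation factor, and Gfm2, a factor of ribosome recycling. Guf1 fell by 0.55 ± 0.07 and then rose by 0.38 ± 0.07, and Gfm2 fell by 0.31 ± 0.09 and rose by 0.32 ± 0.09 (edgeR quasi-likelihood, adjusted p = 0.000207, 0.00238, 0.0347 and 0.0325). Of 25 assembly and rRNA modification factors, 5 fell at 24 h, among them the GTPases of large subunit assembly Mtg1, by 0.85 ± 0.12, and Gtpbp10, by 0.35 ± 0.07, and Ngrn, which stabilises the large rRNA, by 0.74 ± 0.19 (adjusted p = 0.00041, 0.00308 and 0.0148 in the same test). Without control 2, 5 of the 25 fell and 1 rose at 24 h. Mtg1 and Ngrn rose again from 24 to 72 h by 0.60 ± 0.12 and 0.61 ± 0.19. At 72 h the RNA helicase Dhx30 was the 1 of these 25 that passed, with a fall of 0.22 ± 0.05 (adjusted p = 0.0303).

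Of 17 mitochondrial tRNA synthetase genes, 3 fell at 24 h (Tars2 by 0.30 ± 0.07, Aars2 by 0.50 ± 0.13 and Vars2 by 0.29 ± 0.08) and 3 rose from 24 to 72 h (Tars2, Nars2 and Iars2). Without control 2, 5 fell and 1 rose at 24 h, and 5 rose from 24 to 72 h. The shares of all genes in the preceding paragraph, for the same comparison and the same libraries, apply to the counts here as well. Of 10 genes of mitochondrial transcription and mRNA stability, 1 fell at 24 h and 2 at 72 h. Without control 2, 1 of the 10 rose and 2 fell at 24 h, and 2 fell at 72 h. Lrpprc, which stabilises mitochondrial mRNAs, fell by 0.19 ± 0.05 at 24 h and by 0.23 ± 0.05 at 72 h (edgeR quasi-likelihood, adjusted p = 0.0234 and 0.0241). Of 5 genes for insertion of the products into the inner membrane, Letm1 rose at 24 h by 0.17 ± 0.05 and Oxa1l fell by 0.25 ± 0.08 (adjusted p = 0.0462 and 0.0498 in edgeR's test). Oxa1l had an adjusted p of 0.057 without control 2. Without that library, 2 of the 5 rose and 0 fell at 24 h, with log2 fold changes from −0.26 to 1.15. From 24 to 72 h, Letm1 was the 1 that fell with all libraries, by 0.19 ± 0.06 (adjusted p = 0.0341 in edgeR's test). Without control 2, 2 fell between the times. Among 10 regulators of mitochondrial biogenesis, Yy1 rose at 24 h by 0.22 ± 0.06 and Ppargc1a, a coactivator present at 2.14 to 6.48 CPM on average, by 0.81 ± 0.27 (adjusted p = 0.0173 and 0.0478 in edgeR's test). Ppargc1a had an adjusted p of 0.0944 at 24 h without control 2. From 24 to 72 h Ppargc1a fell by 1.60 ± 0.28 and Yy1 by 0.20 ± 0.06 (edgeR quasi-likelihood, adjusted p = 0.00218 and 0.0325). Myc rose by 0.31 ± 0.06 at 72 h (adjusted p = 0.0111 in edgeR's test), the 1 of these 10 that passed there with all libraries. Without control 2, 1 of the 10 rose and 0 fell at 24 h, and 1 rose and 2 fell at 72 h. From 24 to 72 h, 1 rose and 2 fell with all libraries, and 1 rose and 3 fell without control 2. Nrf1 and Gabpa, which encode factors of the NRF1 and ETS motifs, were at 0.09 ± 0.07 and 0.11 ± 0.06 at 24 h and did not pass. Of 13 mRNAs of mitochondrial DNA, the templates that this ribosome translates, 1 rose and 2 fell at 24 h (mt-Nd2, and mt-Co1 and mt-Co2), and 2 fell at 72 h (mt-Nd6 and mt-Cytb). The 24 h call of mt-Nd2 was lost without control 2 (edgeR quasi-likelihood, adjusted p = 0.0447 with it and 0.0693 without). From 24 to 72 h, 1 of the 13 rose, mt-Co1 by 0.36 ± 0.08 (adjusted p = 0.00731 in edgeR's test), and 3 fell. Among the 3 were mt-Cytb, by 0.78 ± 0.13, and mt-Nd2, by 0.72 ± 0.17 (adjusted p = 0.00136 and 0.0112 in edgeR's test). Without control 2, 0 rose and 2 fell at 24 h, and the same at 72 h. From 24 to 72 h 2 then rose and 5 fell.

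Protein-coding genes named for ribosomal proteins of the cytosol, taken by symbol alone, are given for comparison. Their 24 h counts stand beside the same 12.4% and 12.3% of all genes. Of 81 cytosolic ribosomal protein genes tested, 55 fell and 1 rose at 24 h, with a median log2 fold change of −0.41. Without control 2 again 55 fell and 1 rose, with a median of −0.25, where 15.9% of all genes rose and 14.7% fell. At 72 h, 1 fell and 0 rose with all libraries, where 4.73% of all genes rose and 3.83% fell. Without control 2, 4 fell and 1 rose, where 7.63% of all genes rose and 6% fell. From 24 to 72 h, 7 rose and 1 fell with all libraries, where 10.1% of all genes rose and 11.2% fell. Without control 2, 48 rose and 2 fell between the times, where 15.7% of all genes rose and 17.1% fell. The 78 mitochondrial genes had 8 and 5 lower at 24 h with and without control 2, at medians of −0.10 and 0.02. The 2 sets were not tested against each other.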

How the data were processed

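RNA sequencing counts per gene for 9 libraries of mouse adult fibroblasts were used as the authors deposited them, as whole-number counts. The submitters' processing notes list Trim Galore with cutadapt, STAR with RSEM, and edgeR with limma, and the build GRCm38. Tool versions, annotation release and strand setting: not given in the sources used here. A second deposited table of normalized values was not used. Ensembl identifiers were matched to GENCODE M21 symbols (GRCm38), and 105 had no symbol. Low genes were removed with filterByExpr, scaling was by the trimmed mean of M values, and all 9 libraries entered the two-sided quasi-likelihood test of edgeR 4.0.16 under R 4.3.3 (functions glmQLFit, then glmQLFTest), with Benjamini-Hochberg adjustment over all 14088 genes and a threshold of 0.05. RPKM are scaled CPM per kilobase of merged exons. Mrps30 and Mrps18a were kept with the small subunit by symbol. The fits were tested on simulated data. limma 3.58.1 (voom), DESeq2 1.42.0, other scalings and filters, a correction for length and GC content (loess span 0.3), a replicate block and each library left out were alternatives. The genes named are, per comparison, those that passed (up to 12 per subunit and direction), those with the smallest p up to 6 per subunit, up to 8 whose call differs without control 2, the 3 highest and 3 lowest of each subunit by control RPKM, Mrpl12, Mrpl58, Mrps30, Mrps18a, Mrps36 and Mrps5, and up to 3 called genes per other list. Partner genes, Mrpl46, Mrps25, Mrpl36, Nrf1 and Gabpa were named after their values were seen. The members and lists were chosen with earlier results of these data known.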

Additional observations from a re-analysis of the deposited data

Results flagged for a closer look

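For 4 genes the effect against control differed between 24 h and 72 h of DPI, by the direct comparison of the 2 times in edgeR's quasi-likelihood test. The log2 difference of 72 h from 24 h was 0.41 for Mrps10 (adjusted p = 0.00678), 0.32 for Mrpl4 (adjusted p = 0.0225), −0.34 for Mrpl33 (adjusted p = 0.0461) and −0.28 for Mrpl18 (adjusted p = 0.0496). These are 4 of 78 genes, where 10.1% of all genes were higher and 11.2% lower, so the number is below the background. Mrps10 passed with any single library left out. The other 3 did not, with adjusted p up to 0.0855 for Mrpl4, 0.165 for Mrpl33 and 0.176 for Mrpl18. Groups of 3 libraries were not tested for single outlying values.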

How the results depend on the processing

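The alternatives were run for the mitochondrial ribosomal protein genes, and for those named no call reversed. For genes of the other lists and partner genes, only the fit without control 2 was looked at beside the main one. Shares of all genes called are given above for the main fit and the fit without control 2. They are not given for the other alternatives, so the counts below cannot be set against the background of the same fit. Mrpl24 and Mrps6 at 24 h and Mrps10 at 24 h and from 24 to 72 h passed in all 23 settings. At 24 h the number higher (1) was 2 with relative log expression scaling, without the low-count filter, with a mean of at least 5 CPM, with only the compared groups fitted, with voom and with DESeq2. It was 4 with length and GC correction, 5 with that correction without control 2, 7 with only the compared groups without control 2, and 1 to 5 with single libraries left out. The number lower (8) was 4 with the replicate block, 4 with only the compared groups, 5 with either the correction or the compared groups alone when control 2 was also left out, 2 at an adjusted p under 0.01, and 2 to 11 with single libraries left out. The 24 h median ranged from −0.16 to 0.02 for the large and from −0.17 to 0.01 for the small subunit with single libraries left out, and was 0.021 for the small subunit with length and GC correction without control 2.

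At 72 h the number higher was 0 in every alternative run. The number lower (1) was 3 with total counts, 4 without the low-count filter, 2 with length and GC correction, 2 with DESeq2, 0 with the replicate block, 0 with only the compared groups, 0 at an adjusted p under 0.01, and 0 to 2 with single libraries left out. The median ranged from −0.19 to 0.011 for the large and from −0.14 to −0.00 for the small subunit, and was 0.016 for the large subunit with only the compared groups without control 2.

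From 24 to 72 h the number higher (2) was 10 with only the compared groups, with or without control 2, 7 with length and GC correction without control 2, 1 at an adjusted p under 0.01, and 1 to 9 with single libraries left out. The number lower (2) was 0 with upper quartile scaling, 1 with scaling without ribosomal protein genes, 1 with the replicate block, 1 with voom, 4 with length and GC correction and 11 with it without control 2, 7 with only the compared groups, with or without control 2, 0 at an adjusted p under 0.01, and 0 to 8 with single libraries left out. The median ranged from −0.042 to 0.015 for the large and from −0.08 to −0.03 for the small subunit. The cause of these shifts was not tested. Same-numbered libraries had correlations of −0.092 to 0.003, so the numbers gave no pairing.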
